A study of Mus musculus with 11 samples.

Results

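Protocadherins are the largest group of the cadherin superfamily, and were taken here as the genes whose mouse symbol starts with Pcdh. The rule found 70 genes of the 27179 identifiers counted in the series. Of these 70, 58 lie in the clustered loci (14 in the alpha, 22 in the beta and 22 in the gamma cluster) and 12 are non-clustered genes elsewhere in the genome. The family was chosen by the measured levels of 1 member, Pcdhgc3, which were higher in luminal end buds than in luminal ducts, so the levels in this contrast are a description for every member, and Pcdhgc3 was tested only within basal cells.

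The study profiled mammary epithelium of Ecadherin-GFP knock-in females of the C57BL/6 strain at 5 weeks of age, in puberty, when the ducts grow out from terminal end buds (TEBs) at their tips. TEBs and ducts were dissected under fluorescence, and lineage-negative cells with CD24 and CD29 on their surface were sorted by the GFP tag on E-cadherin into a bright (luminal) and a dim (basal) fraction. Bulk RNA-seq gave 11 libraries from 4 groups, which were basal duct, basal TEB and luminal TEB with 3 libraries each and luminal duct with 2. All groups share the strain, the age and the reporter, no treatment is named, each replicate was a pool of mice, and 1 luminal duct sample was left out by the authors for its low cell number.

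Protocadherins carry cadherin repeats outside the cell and, in the clustered families, bind the same isoform on a neighboring cell. Each clustered gene has its own promoter and large first exon, and the alpha and the gamma genes splice that exon to constant exons shared by the whole cluster, while each beta gene is a single exon. They are best known from neurons, where CTCF and cohesin choose which promoters a cell uses, and the C-type genes at the end of the alpha and gamma clusters are less subject to that choice.

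The libraries held 27989137 to 49221436 read pairs counted on genes, and levels are CPM (counts scaled to the library size) after TMM scaling, given in the order of replicates 1, 2 and 3 (1 and 3 for luminal duct). A count of 0 allows up to 0.0572 to 0.173 CPM, depending on the library, for counting error only. Counts on mitochondrial genes took 37.5% of basal TEB 1 and 28.5% of luminal duct 3, against 4.34% to 17.8% in the other 9 libraries. These were also the 2 libraries with the most members at 0, with 28 and 30 of the 51 members that passed the filter on low counts, while 25.5% and 19.2% of all 17370 genes tested were at 0 in them. The 6 basal markers (Krt5, Krt14, Krt17, Trp63, Acta2 and Myh11) summed to 5241 to 18419 CPM in basal and 13.1 to 222 CPM in luminal libraries, and the 6 luminal markers (Krt8, Krt18, Elf5, Esr1, Prlr and Areg) to 232 to 482 CPM and 9419 to 15620 CPM.

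The shared exons limit what a count can say. In the mm10 annotation the alpha genes shared 3 exons with 2860 bases and the gamma genes 3 exons with 2119 bases, and a median of 56.9% of the 80-base windows of an alpha gene and 44.3% of those of a gamma gene were also found in another member. In beta genes the median was 0.986% and the highest value 8.54%, and in non-clustered genes it was 0. Pcdha1 to Pcdha5 had no count in any library, also where other alpha genes were counted, so read pairs from the shared exons were not credited to every gene of the cluster. Gamma and alpha counts remain uncertain where a near-identical stretch could be split between paralogs, and the library kit did not mark the strand.

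Summed over the non-clustered, beta and gamma classes, the level was higher in every basal than in every luminal library. The 22 beta genes summed to 51.1 ± 7.38 CPM (SD, n = 3) in basal duct, 23.5 ± 8.98 (n = 3) in basal TEB, 8.59 ± 2.16 (n = 2) in luminal duct and 5.48 ± 2.21 (n = 3) in luminal TEB. The 22 gamma genes summed to 135 ± 69.1 CPM, 155 ± 37.4, 20.2 ± 1.70 and 48.6 ± 2.55 in the same order. The 12 non-clustered genes summed to 190.5 ± 42.8 CPM in basal duct, 213 ± 33.2 in basal TEB, 55.5 ± 29.0 in luminal duct and 58.1 ± 6.11 in luminal TEB. The alpha genes summed to 12.7 CPM or less in every library. In the beta class, the basal duct libraries (45.8 to 59.6 CPM) did not overlap the basal TEB libraries (14.0 to 31.8 CPM), whereas in the gamma class the basal groups overlapped (54.9 to 176 and 113 to 184 CPM). Without composition normalization the lowest basal gamma sum, that of basal duct 2 (51.6 CPM), fell below the luminal TEB sums (54.2 to 61.2 CPM). The beta and the non-clustered sums still did not overlap. The gamma sum includes Pcdhgc3, whose values led to the choice of the family and which made up most of the basal gamma counts. Of the types without Pcdhgc3, the b-type sums overlapped (8.02 CPM in basal duct 2, 12.4 CPM in luminal TEB 2). The a-type sums did not overlap after TMM scaling (10.9 CPM in basal duct 2, 10.7 CPM in luminal TEB 2). Without composition normalization they overlapped, with 416 a-type counts of 40443917 in basal duct 2 and 561 of 42666893 in luminal TEB 2. In bulk RNA, fewer cells that express a gene and less RNA of it per cell cannot be told apart.

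**Figure D1:**
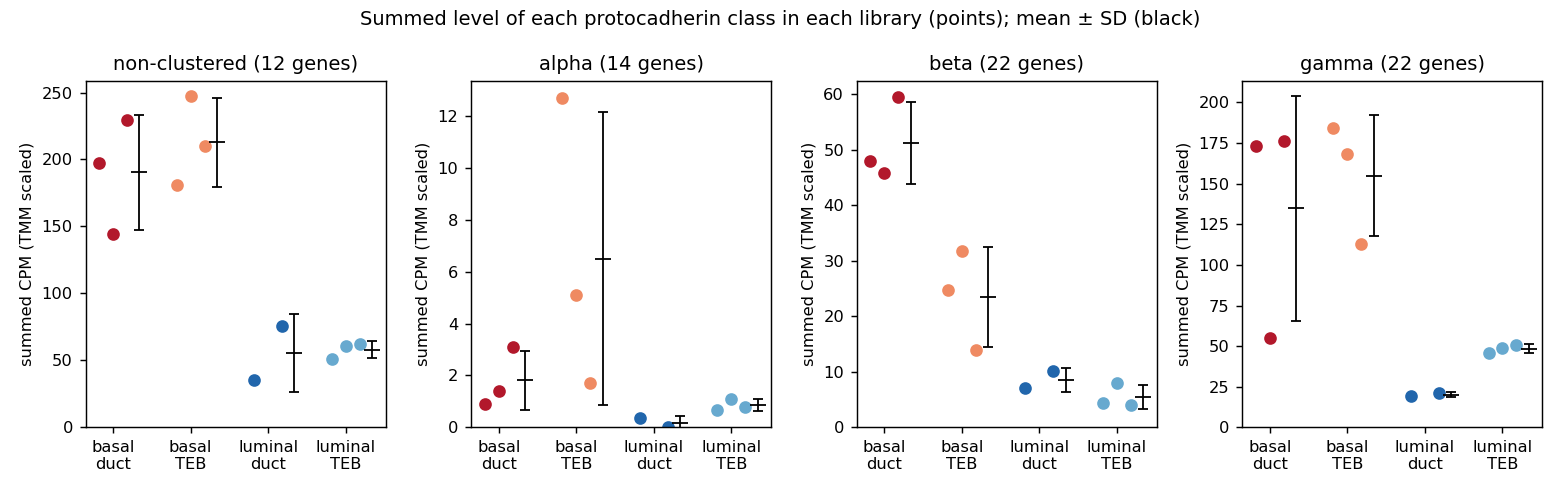
Summed CPM (y axis, from 0, separate scale for each panel) of the non-clustered, alpha, beta and gamma protocadherins in each of the 11 libraries (points), by group on the x axis, with the mean ± SD in black. The beta sum was at 45.8 CPM or more in every basal duct library and at 31.8 CPM or less in every other library. The gamma sum was at 54.9 CPM or more in the 6 basal libraries and at 50.8 CPM or less in the 5 luminal libraries. The gamma sum includes Pcdhgc3, whose values led to the choice of the family.

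Pcdhgc3, the C-type gamma gene for which the family was chosen, was at 125, 34.8 and 123 CPM in basal duct, 126, 119.5 and 66.6 in basal TEB, 5.51 and 2.47 in luminal duct, and 22.1, 20.8 and 26 in luminal TEB. All 3 luminal TEB libraries lay above both luminal duct libraries, and all luminal libraries lay below all basal ones. The fitted log2 fold changes, which were not tested, were 2.51 for luminal TEB against luminal duct (3.22 without luminal duct 1), 4.54 for basal against luminal duct and 2.18 for basal against luminal TEB. Within basal cells, where Pcdhgc3 was tested, TEB and duct did not differ past the threshold (log2 fold change 0.15, SE 0.43, adjusted p = 0.925 from the quasi-likelihood test of edgeR, adjusted over all genes by the Benjamini-Hochberg method), and the sign turned in 5 of 21 alternative settings.

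Pcdhgc3 made up most of the gamma counts in basal cells. Its share was 72.1%, 63.3% and 69.5% of all gamma counts in basal duct and 68.5%, 71.1% and 59.1% in basal TEB. In luminal duct the share was 28.9% (95% Clopper-Pearson interval 25.9% to 32.2%) and 11.5% (8.90% to 14.6%), and in luminal TEB it was 48.4%, 42.4% and 51.3%. Each luminal library had a lower share than each basal library, and both luminal duct libraries lay below the luminal TEB libraries. Pcdhgc4, the neighboring C-type gene, had 1.03% to 5.20% of gamma counts in basal libraries and 9.47% to 25.5% in luminal libraries, and its shares in luminal duct (12.4% and 25.5%) and luminal TEB (9.47% to 13.9%) overlapped. A share rises where Pcdhgc3 falls, and the CPM of Pcdhgc4 overlapped between the groups in each comparison. The intervals cover counting error only, and the Pcdhgc3 shares use the values that led to the choice of the family.

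**Figure D2:**
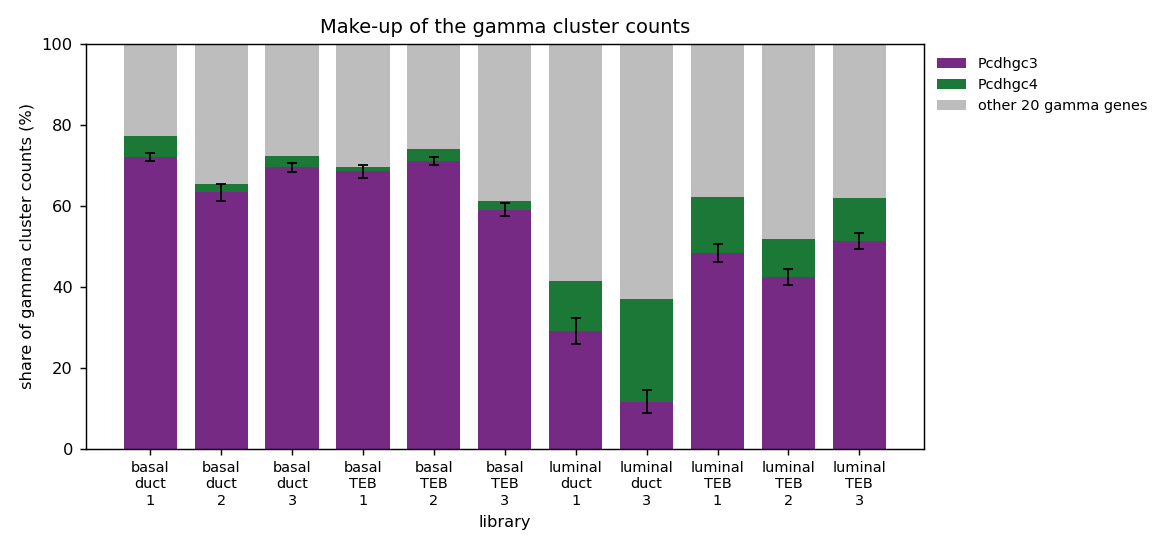
Share of the gamma cluster counts (y axis, %) held by Pcdhgc3 (purple), Pcdhgc4 (green) and the other 20 gamma genes (grey) in each library (x axis), with black bars for the 95% Clopper-Pearson interval of the Pcdhgc3 share. Pcdhgc3 held 59.1% to 72.1% in basal libraries, 11.5% and 28.9% in luminal duct and 42.4% to 51.3% in luminal TEB.

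Pcdhgc4, whose gene in neurons is known for its role in cell survival, was at 9.0, 1.18 and 4.85 CPM in basal duct, 1.9, 4.97 and 2.52 in basal TEB, 2.37 and 5.47 in luminal duct, and 6.37, 4.65 and 5.45 in luminal TEB. The third C-type gamma gene, Pcdhgc5, was at 0.938, 0 and 2.0 CPM in basal duct, 0, 1.87 and 2.1 in basal TEB, 0 and 1.07 in luminal duct, and 0.785, 0.572 and 0.886 in luminal TEB.

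Among the 12 non-clustered genes, 9 passed the filter, and 3 of them (Pcdh18, Pcdh7 and Pcdh1) were called between basal and luminal cells in both structures. Over all genes tested, 22.3% were called in ducts and 25.1% in TEBs. Pcdh18, a delta-2 protocadherin, was the non-clustered member with the most counts. The stretch just before its start on chromosome 3 (GRCm38.p6, chr3:49757384-49757566, minus strand) and that before Pcdh10, a delta-2 gene on the same chromosome (chr3:45378148-45378397, plus strand), are shown from RefSeq because Pcdh18 was called and Pcdh10, also delta-2, lay higher in every basal than in every luminal TEB library. The clustered promoters, all on another chromosome, are not printed here. Capitals mark GGGCGG or its reverse complement, the core of an Sp1 site.
Pcdh18: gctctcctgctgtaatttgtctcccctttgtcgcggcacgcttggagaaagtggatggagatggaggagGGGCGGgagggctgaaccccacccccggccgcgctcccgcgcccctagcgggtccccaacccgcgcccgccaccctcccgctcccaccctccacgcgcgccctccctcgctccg
Pcdh10: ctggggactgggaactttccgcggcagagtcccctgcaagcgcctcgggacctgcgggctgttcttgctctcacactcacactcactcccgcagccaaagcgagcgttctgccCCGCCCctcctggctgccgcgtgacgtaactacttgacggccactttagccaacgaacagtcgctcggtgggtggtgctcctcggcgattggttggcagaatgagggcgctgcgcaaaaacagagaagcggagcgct
The Pcdh18 stretch has 183 bases and a GC content of 72.1%, and holds 1 GGGCGG. The motif is found in 21.5% of the 32851 RefSeq promoter sequences within their first 183 bases. Those bases need not reach the start of a gene, so the share is not one for stretches next to it. The Pcdh10 stretch has 250 bases and a GC content of 63.2%, and holds 1 match on the other strand, a motif found in 32.7% of such stretches. TATAAA, the TATA box, and GGAATG, a TEAD motif, were searched on both strands and had no match in either stretch. Over all promoter sequences, 8.49% and 9.91% hold them in the first 183 bases, and 12.4% and 12.6% in the first 250 bases.

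Pcdh18 was at 128, 67.3 and 157 CPM in basal duct, 132, 193 and 166 in basal TEB, 3.85 and 11.1 in luminal duct, and 4.95, 8.67 and 4.28 in luminal TEB. Each basal library lay above each luminal one. The gene was higher in basal than in luminal cells by 3.98 on the log2 scale in ducts (SE 0.54, adjusted p = 0.000239) and by 4.78 in TEBs (SE 0.47, adjusted p = 1.53e-05, both edgeR). Between basal TEB and basal duct its log2 fold change was 0.48 (SE 0.40, adjusted p = 0.642), with overlapping libraries.

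Pcdh7, a delta-1 protocadherin whose cytoplasmic tail binds the phosphatase PP1 and SET, was at 57.6, 57.4 and 64.1 CPM in basal duct, 31.9, 42.6 and 34.1 in basal TEB, 0.159 and 4.73 in luminal duct, and 0, 0.191 and 0.0193 in luminal TEB. It was higher in basal cells by 4.65 in ducts (SE 1.10, adjusted p = 0.00930) and by 8.90 in TEBs (SE 1.18, adjusted p = 0.000146 by edgeR) on the log2 scale, and the value in TEBs was 11.38 without luminal TEB 2. The difference in ducts depended on luminal duct 3, without which the log2 fold change was 8.52. Luminal duct 3 also held 249.7 CPM of the 6 fibroblast markers (Col1a1, Col1a2, Col3a1, Pdgfra, Dcn and Lum) against 6.03 CPM in luminal duct 1, and the part of other cells in its Pcdh7 level was not tested. In basal cells all 3 TEB libraries lay below all 3 duct libraries, with a log2 fold change of -0.72 (SE 0.78) that did not pass the test (adjusted p = 0.730).

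Pcdh1, a delta-1 protocadherin of airway and other epithelia, had the opposite pattern and was at 4.93, 4.21 and 1.15 CPM in basal duct, 0, 1.83 and 1.68 in basal TEB, 30.5 and 57.1 in luminal duct, and 44.9, 50.4 and 57.7 in luminal TEB. All luminal libraries lay above all basal libraries. The gene was lower in basal cells, with a log2 fold change of -3.67 in ducts (SE 0.86, adjusted p = 0.00867) and of -5.37 in TEBs (SE 0.90, adjusted p = 0.000809 by edgeR). In basal cells, TEB against duct gave -1.48 (SE 0.78, adjusted p = 0.413).

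**Figure D3:**
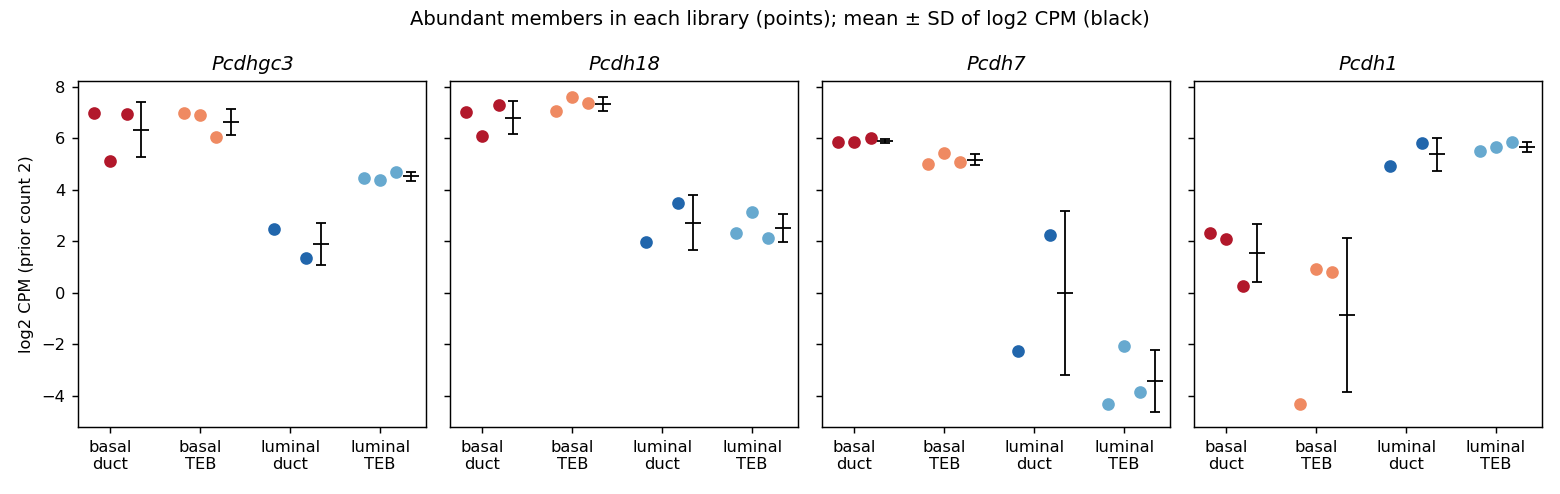
Log2 CPM (y axis, prior count 2) of Pcdhgc3, Pcdh18, Pcdh7 and Pcdh1 in each library (points) by group (x axis), with the mean ± SD of the log2 values in black. Pcdhgc3, Pcdh18 and Pcdh7 were higher and Pcdh1 was lower in every basal library than in every luminal library, and Pcdhgc3, which chose the family, was higher in the 3 luminal TEB libraries than in both luminal duct libraries.

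The other non-clustered genes were counted at low levels. Pcdh10 was at 0.958, 0.474 and 2.9 CPM in basal duct, 1.85, 3.09 and 2.69 in basal TEB, 0.569 and 0 in luminal duct, and 0.0224, 0.248 and 0 in luminal TEB. Pcdh19, a delta-2 gene on the X chromosome, was at 0, 3.68 and 1.05 CPM in basal duct, 8.66, 2.65 and 0.42 in basal TEB, 0 and 1.11 in luminal duct, and 0.0448, 0.0572 and 0.212 in luminal TEB. Pcdh12, known as an endothelial protocadherin, was at 1.2, 4.0 and 3.05 CPM in basal duct, 2.83, 2.67 and 3.86 in basal TEB, 0 and 1.97 in luminal duct, and 0.0224, 0.343 and 0.25 in luminal TEB. For these 3 genes every basal TEB library lay above every luminal TEB library, without passing the test, where 22.6% of all genes tested did so. The duct libraries of these genes overlapped. The endothelial markers (Pecam1, Cdh5, Kdr, Tek and Emcn) summed to 3.53 to 175 CPM in basal and 1.02 to 26.2 CPM in luminal libraries, with up to 4 of 5 at 0 in a library, and their part in the Pcdh12 level was not tested.

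Pcdh17, of the delta-2 group, was at 0, 7.58 and 0.0257 CPM in basal duct, 4.16, 0.947 and 0 in basal TEB, 0 in both luminal duct libraries, and 0, 0.324 and 0.0578 in luminal TEB, and its largest value came from basal duct 2, the library with the highest sum of endothelial markers (175 CPM). Pcdh9, a delta-1 gene, was at 4.39, 0 and 0 CPM in basal duct, 0, 0.442 and 0.896 in basal TEB, 0 in both luminal duct libraries, and 0 in all 3 luminal TEB libraries. Pcdh8 passed the filter with at most 0.673 CPM in any library. Pcdh15, Pcdh20 and Pcdh11x did not pass the filter and reached at most 0.316 CPM.

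Per length, the order of the members differed between basal and luminal cells. Levels were divided by the gene length of the deposited table less the shared exons, as CPM per kb. This assumes that no read pair from a shared exon was counted, which was not tested. Over its full deposited length (4687 bases in place of 2568) Pcdhgc3 would rank below Pcdh18 in both basal groups. In basal duct, Pcdhgc3 (36.6 ± 19.99 CPM per kb, SD, n = 3) and Pcdh18 (22.8 ± 8.89) ranked first and did not differ beyond their spread, followed by Pcdh7 (6.56 ± 0.417) and Pcdhb17 (2.71 ± 0.157). In basal TEB, Pcdhgc3 (40.5 ± 12.7) and Pcdh18 (31.6 ± 5.92) were again within each other's spread, and Pcdhgb6 (4.12 ± 2.39) and Pcdh7 (3.98 ± 0.620) came next. In luminal TEB, Pcdh1 ranked first (13.1 ± 1.64) ahead of Pcdhgc3 (8.96 ± 1.06) and Pcdhgc4 (1.89 ± 0.296). In luminal duct, Pcdh1 (11.2 ± 4.83, n = 2) was followed by Pcdhgc3 (1.55 ± 0.837), Pcdh18 (1.45 ± 0.999), Pcdhb17 (1.39 ± 0.863) and Pcdhgc4 (1.35 ± 0.755), which lay within each other's spread.

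Basal against luminal cells was the comparison in which members passed the test. In ducts 8 of the 50 members tested were called at an FDR of 0.05, 7 of them higher and 1 lower in basal cells, where 22.3% of all genes tested were called (12.6% higher and 9.71% lower). They were Pcdh18, Pcdh7, the gamma genes Pcdhgb1 and Pcdhga6 and the beta genes Pcdhb9, Pcdhb20 and Pcdhb22, all higher, and Pcdh1, lower. In TEBs 5 of 50 were called, 4 higher (Pcdh18, Pcdh7, Pcdhb17 and Pcdhb14) and 1 lower (Pcdh1), where 25.1% of all genes were called (13.2% higher and 11.8% lower). The fitted log2 fold change was above 0 for 46 members in ducts and 43 in TEBs, with medians of 2.68 and 1.84 against 0.08 and 0.04 over all genes tested. These tallies are a description, since 6 members, all beta genes, passed the filter only through basal duct and so had to be higher there. Pcdh9 passed only through basal TEB, and Pcdh8 only through luminal TEB. The check left out 1 group at a time, so members that passed only through both basal groups together are not counted. In ducts 17 of the 50 members had a group at 0. By limma voom, 43 members were above 0 in ducts and 32 in TEBs. With genes at 0 in a group set to their bound, the medians were 2.61 and 1.84. Groups did not overlap for 22 of 50 members in ducts (21 higher, 1 lower), where 46% of all genes did not overlap (24.8% higher and 21.2% lower), and for 16 of 50 in TEBs (15 higher, 1 lower), where 49.8% did not (22.6% higher and 27.2% lower).

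The count of calls depended on the test. DESeq2 called 18 members in ducts and 12 in TEBs, limma voom 18 and 7, and the likelihood ratio test 16 and 10. Each of these lists held all 8 members in ducts and at least 4 of the 5 in TEBs. The shares of 22.3% and 25.1% of all genes belong to the quasi-likelihood test. No such share is given for the other tests, so their counts have no background here. The calls of Pcdh18, Pcdh7 and Pcdh1 in both structures, and of Pcdhgb1 in ducts, held in all 21 alternatives. Without luminal TEB 1 or luminal TEB 3 Pcdh18, Pcdh7 and Pcdh1 were the 3 members called in TEBs, and without basal TEB 1 and luminal duct 3 together 8 members were called there.

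Pcdhgb1 and Pcdhga6 were the gamma genes called between basal and luminal cells, both in ducts, and whether their difference was larger in ducts than in TEBs was not tested. Pcdhgb1 was at 5.63, 2.03 and 3.72 CPM in basal duct, 0.577, 3.77 and 2.1 in basal TEB, 0 in both luminal duct libraries, and 0.426, 0.648 and 0.674 in luminal TEB. The gene was at least 90.2-fold higher in basal than in luminal ducts, with the 2 luminal libraries at 0 set to 3 counts over the group (adjusted p = 0.00457 by edgeR). Bounds of this kind, here and for other members, compare counts pooled over each group and leave out the spread between libraries. Pcdhga6 was at 0.439, 1.08 and 2.08 CPM in basal duct, 9.93, 3.75 and 3.11 in basal TEB, 0 in both luminal duct libraries, and 0.404, 1.87 and 0.655 in luminal TEB. It was at least 25.8-fold higher in basal than in luminal ducts (adjusted p = 0.0114 by edgeR), a call lost without luminal duct 1 (adjusted p = 0.0524) and in a fit of the duct groups alone (0.107). Among the 51 members Pcdhga6 was also the only one whose basal TEB libraries all lay above the basal duct libraries, where 8.88% of all genes tested did so. Its log2 fold change of 2.22 (SE 1.13) did not pass the test (adjusted p = 0.402 by edgeR).

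Pcdhgb6, which was detected in all 11 libraries, was at 3.27, 2.47 and 9.18 CPM in basal duct, 17.6, 6.23 and 7.9 in basal TEB, 1.82 and 3.33 in luminal duct, and 2.98, 3.68 and 2.16 in luminal TEB. Pcdhga10, also detected in every library, was at 5.15, 2.08 and 3.9 CPM in basal duct, 1.1, 2.48 and 0.672 in basal TEB, 0.819 and 0.0411 in luminal duct, and 2.56, 1.68 and 2.04 in luminal TEB. Pcdhga11, next to Pcdhgb7 along the chromosome, was at 1.16, 0 and 4.75 CPM in basal duct, 13.4, 4.76 and 2.52 in basal TEB, 0.364 and 2.59 in luminal duct, and 0.785, 0.705 and 1.21 in luminal TEB. The highest values of Pcdhgb6 and Pcdhga11 were those of basal TEB 1, the library with the largest mitochondrial share, in which 11 of 22 gamma genes were detected.

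Further a-type genes at 1 CPM or more in a group were Pcdhga3, Pcdhga4, Pcdhga5, Pcdhga7, Pcdhga9 and Pcdhga12. Pcdhga3 was at 0.319, 0 and 2.41 CPM in basal duct, 3.81, 1.56 and 0.924 in basal TEB, 0.569 and 1.27 in luminal duct, and 0.717, 0.61 and 0.212 in luminal TEB. Pcdhga4 was at 0.18, 1.71 and 1.13 CPM in basal duct, 0, 0.674 and 2.52 in basal TEB, 0 in both luminal duct libraries, and 1.03, 0.572 and 0.674 in luminal TEB. Pcdhga4, with no count in luminal ducts, was detected in every luminal TEB library. Pcdhga5 was at 3.83, 2.1 and 2.85 CPM in basal duct, 3.81, 3.62 and 3.86 in basal TEB, 1.27 and 0 in luminal duct, and 1.37, 0.667 and 1.14 in luminal TEB. Pcdhga7 was at 0, 1.53 and 3.33 CPM in basal duct, 0, 1.94 and 4.79 in basal TEB, 2.5 and 0 in luminal duct, and 0.874, 1.73 and 1.35 in luminal TEB. Across the 6 basal libraries Pcdhga5 stayed between 2.10 and 3.86 CPM, while Pcdhga7 ran from 0 to 4.79 CPM. Pcdhga9 was at 3.43, 1.32 and 1.05 CPM in basal duct, 0, 2.99 and 3.0 in basal TEB, 0.455 and 3.7 in luminal duct, and 0.717, 1.6 and 1.14 in luminal TEB. Pcdhga12 was at 1.4, 0.895 and 0.821 CPM in basal duct, 0, 1.05 and 0 in basal TEB, 0 in both luminal duct libraries, and 0.314, 0.324 and 0.0385 in luminal TEB. Neither gene passed a test. The remaining a-type genes (Pcdhga1, Pcdhga2 and Pcdhga8) stayed at 1.99 CPM or less in every library.

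Some b-type genes varied widely from library to library. Pcdhgb2 was at 2.75, 0.132 and 1.72 CPM in basal duct, 5.83, 0.968 and 0 in basal TEB, 0.455 and 0.0411 in luminal duct, and 0.0897, 2.88 and 1.7 in luminal TEB. Pcdhgb4 was at 6.48, 0.342 and 1.95 CPM in basal duct, 0.0577, 2.02 and 0 in basal TEB, 0.797 and 0.0411 in luminal duct, and 1.37, 2.13 and 1.56 in luminal TEB. Within basal duct alone, Pcdhgb2 ran from 0.132 to 2.75 CPM and Pcdhgb4 from 0.342 to 6.48 CPM. Pcdhgb5 was at 0.758, 0 and 2.03 CPM in basal duct, 0, 1.33 and 2.21 in basal TEB, 0.387 and 1.4 in luminal duct, and 1.05, 0.895 and 0.482 in luminal TEB. Pcdhgb7 was at 1.02, 2.21 and 2.69 CPM in basal duct, 0, 2.72 and 2.52 in basal TEB, 0.842 and 0 in luminal duct, and 1.19, 1.51 and 1.48 in luminal TEB. Pcdhgb8 stayed at 0.842 CPM or less. Spread of this size was common to the clustered genes and to other genes of their abundance, since the median biological coefficient of variation was 1.39 for the 42 clustered members tested and 1.37 for the 1865 other genes of similar average abundance, against 0.423 over all genes tested.

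Of the 22 beta genes, 16 to 20 were counted in each basal duct library, and 11 and 5 in the luminal duct libraries. Pcdhb9 was at 5.95, 4.37 and 4.44 CPM in basal duct, 0, 1.12 and 0.532 in basal TEB, 0 in both luminal duct libraries, and 0.291, 0.305 and 0.52 in luminal TEB. Pcdhb20 was at 2.85, 5.5 and 5.69 CPM in basal duct, 1.73, 3.41 and 0.112 in basal TEB, 0 and 0.0411 in luminal duct, and 0.336, 0.705 and 0.0578 in luminal TEB. Pcdhb22 was at 3.95, 6.34 and 3.31 CPM in basal duct, 8.25, 3.98 and 3.44 in basal TEB, 0.25 and 0.164 in luminal duct, and 0.717, 1.51 and 0.693 in luminal TEB. These are the 3 beta genes called between basal and luminal ducts, and none of their basal duct libraries overlapped the luminal ones. Over all genes tested, 12.6% were called higher and 24.8% lay higher without overlap. Pcdhb9 was at least 114-fold higher in basal ducts, with the luminal libraries at 0 (adjusted p = 0.0132 by edgeR, 0.0569 without luminal duct 1). Pcdhb20 had 574 counts in basal and 1 count in luminal ducts, a ratio of 308 (95% counting interval 55.1 to 12195, adjusted p = 0.0270 by edgeR), and its call was lost in 4 of 21 alternatives, among them those without basal duct 3, luminal duct 1 or luminal duct 3 (adjusted p = 0.0576, 0.115 and 0.0524). Pcdhb22 was higher by 4.42 on the log2 scale (SE 1.14, adjusted p = 0.0149 by edgeR, 0.0629 without luminal duct 3 and 0.0609 in a fit of the duct groups alone).

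Pcdhb17 and Pcdhb14 were the beta genes called between basal and luminal TEBs, and a difference between TEBs and ducts in this effect was not tested. Pcdhb17 was at 8.28, 9.26 and 9.03 CPM in basal duct, 9.18, 5.9 and 3.95 in basal TEB, 2.55 and 6.54 in luminal duct, and 1.01, 1.14 and 0.963 in luminal TEB. Pcdhb14 was at 1.2, 2.29 and 5.95 CPM in basal duct, 4.56, 3.12 and 0.28 in basal TEB, 0.979 and 2.51 in luminal duct, and 0.112, 0.191 and 0.212 in luminal TEB. Both were detected in all 11 libraries, and in both the luminal TEB libraries lay below every luminal duct library and every basal TEB library. Over all genes tested, 17.4% lay lower in luminal TEB than in luminal duct without overlap, and 22.6% higher in basal than in luminal TEB. Pcdhb17 was higher in basal than in luminal TEBs by 2.60 on the log2 scale (SE 0.66, adjusted p = 0.0122 by edgeR), and its call was lost without luminal TEB 1 or luminal TEB 3 (adjusted p = 0.0568 and 0.0603). Pcdhb14 was higher by 3.92 (SE 1.30, adjusted p = 0.0454 by edgeR), and its call was lost in 12 of 21 alternatives, with an adjusted p of 0.0525 to 0.160 without any 1 of basal duct 2, basal duct 3, basal TEB 1, basal TEB 2 or the 3 luminal TEB libraries.

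The other beta genes at 1 CPM or more in a group were Pcdhb3, Pcdhb4, Pcdhb5, Pcdhb7, Pcdhb11, Pcdhb13, Pcdhb16 and Pcdhb19. Pcdhb3 was at 1.08, 1.74 and 1.41 CPM in basal duct, 0, 0.884 and 0.028 in basal TEB, 0 in both luminal duct libraries, and 0, 0.0572 and 0 in luminal TEB. Pcdhb4 was at 0, 3.84 and 3.33 CPM in basal duct, 0, 0.253 and 0 in basal TEB, 0.888 and 0 in luminal duct, and 0 in all 3 luminal TEB libraries. Pcdhb4 was counted in luminal duct 1 and in no other luminal library. Pcdhb5 was at 1.6, 0.21 and 2.77 CPM in basal duct, 0, 0.821 and 0.224 in basal TEB, 0.41 and 0 in luminal duct, and 0, 0.248 and 0.231 in luminal TEB. Pcdhb7 was at 3.55, 4.76 and 1.92 CPM in basal duct, 0, 0.884 and 0.14 in basal TEB, 0.137 and 0 in luminal duct, and 0.0673, 0.40 and 0 in luminal TEB. Pcdhb7 was highest in the basal duct libraries. Pcdhb11 was at 1.66, 1.82 and 2.82 CPM in basal duct, 0, 0.379 and 0 in basal TEB, 0 in both luminal duct libraries, and 0 in all 3 luminal TEB libraries. Pcdhb13 was at 7.6, 2.18 and 3.23 CPM in basal duct, 0, 0.758 and 0 in basal TEB, 0 in both luminal duct libraries, and 0, 0 and 0.0578 in luminal TEB. Outside basal duct the highest value of either gene was 0.758 CPM. Pcdhb16 was at 6.38, 1.37 and 2.41 CPM in basal duct, 1.1, 2.02 and 1.34 in basal TEB, 0.228 and 0 in luminal duct, and 0.426, 0.895 and 0.0193 in luminal TEB. Pcdhb19 was at 1.92, 1.18 and 4.9 CPM in basal duct, 0, 3.31 and 3.05 in basal TEB, 0.501 and 0.864 in luminal duct, and 0.516, 0.572 and 0.482 in luminal TEB. For both, every basal duct library lay above the luminal duct libraries, without a call, where 24.8% of all genes tested did so. The remaining 9 beta genes, of which 6 passed the filter, stayed at 2.23 CPM or less in every library.

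**Figure D4:**
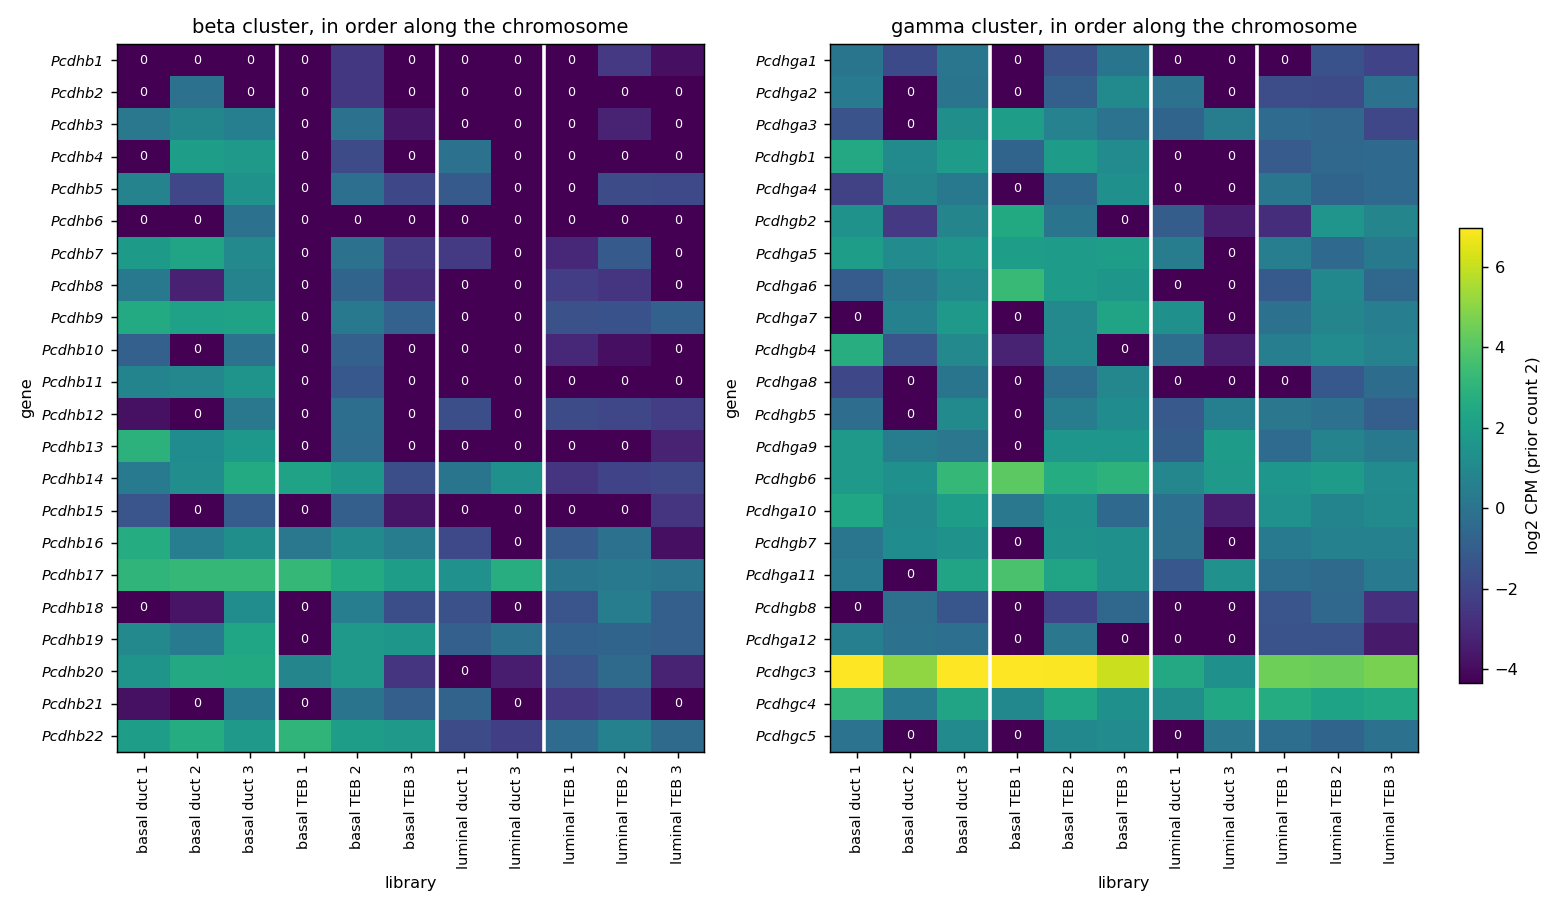
Log2 CPM (color, prior count 2) of the 22 beta genes (left) and the 22 gamma genes (right), in their order along the chromosome (y axis), in each of the 11 libraries (x axis), where a 0 marks a gene with no count. Pcdhgc3 stands out in the gamma cluster, Pcdhb14, Pcdhb17 and Pcdhb22 are counted in every library, and basal TEB 1 and luminal duct 3 each had 5 of 22 beta genes with a count.

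Basal TEB against basal duct gave no called member. Of 51 members, 0 passed an FDR of 0.05 in edgeR's quasi-likelihood test and 0 had an unadjusted p under 0.05, where 1.32% of all genes were called (0.167% higher and 1.16% lower). At an unadjusted p under 0.05 the likelihood ratio test gave 3 members, DESeq2 3 and limma voom 11. At an FDR of 0.05 these gave 0, 0 and 2 (Pcdhb11 and Pcdhb13, both lower in TEBs). The 1.32% is for the quasi-likelihood test at an FDR of 0.05. No share of all genes is given for these other tests, so their counts cannot be judged against a background. As a description, the fitted log2 fold change was below 0 for 17 of 19 beta genes, with a median of -1.39 against -0.03 over all genes, and below 0 for 8 of 22 gamma genes, with a median of 0.17. The filter bears on the beta count and on both limma voom calls. Of these 19 genes, 6 (Pcdhb3, Pcdhb8, Pcdhb10, Pcdhb11, Pcdhb13 and Pcdhb15) passed it only through their basal duct libraries and so had to be high there. The count and the 2 calls support nothing by themselves. The libraries did not overlap for 5 beta genes (Pcdhb3, Pcdhb7, Pcdhb9, Pcdhb11 and Pcdhb13) and Pcdh7, all lower in TEBs, and for Pcdhga6, higher. Over all genes, 20.8% did not overlap (8.88% higher and 11.9% lower). Of the 5 beta genes, Pcdhb3, Pcdhb11 and Pcdhb13 passed the filter only through basal duct.

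Single beta genes had wide errors in this comparison. Pcdhb9 had a log2 fold change of -3.14 (SE 1.44, adjusted p = 0.352 by edgeR). Basal TEB 1, in which 5 of 22 beta genes were detected, and luminal duct 3 were left out together as an alternative chosen after the data were seen. Without them no member was called. The beta sum of basal TEB 1 (24.8 CPM) lay between those of the other 2 basal TEB libraries. The basal markers were also lower in basal TEB (5241 to 8159 CPM) than in basal duct (14660 to 18419 CPM), and their relation to the beta levels was not tested.

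**Figure D5:**
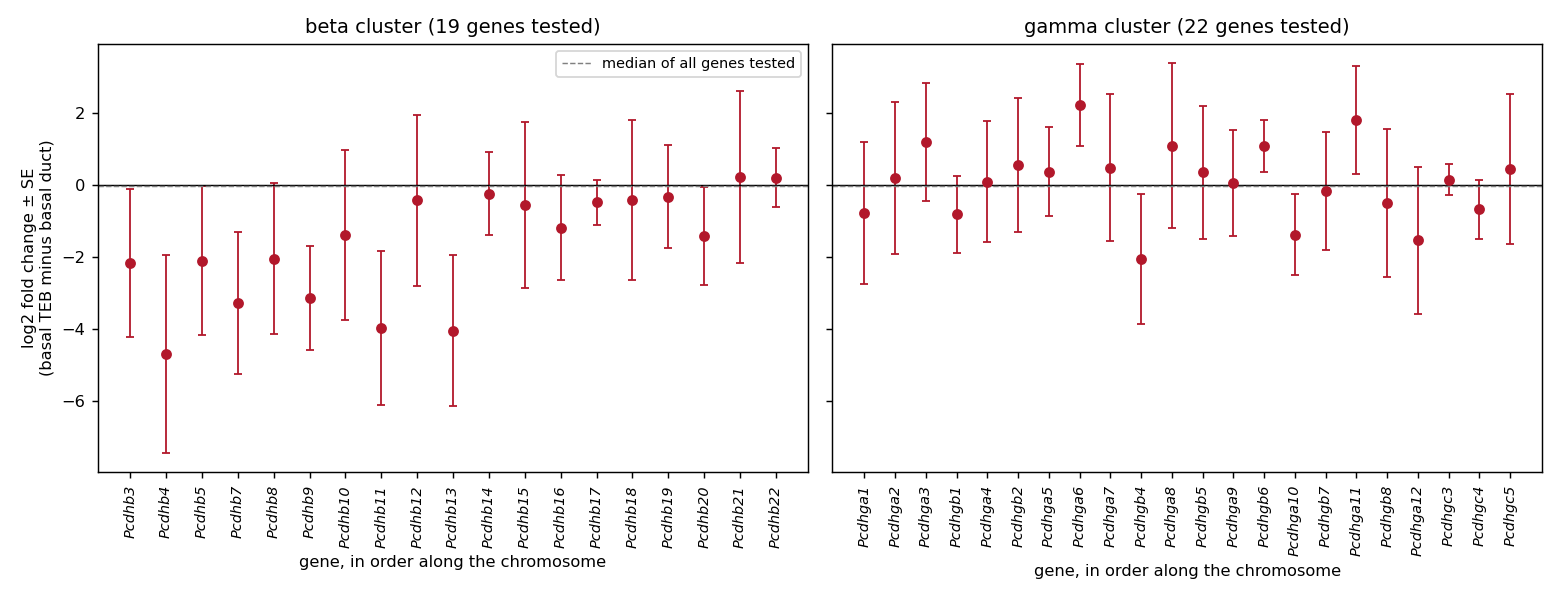
Log2 fold change ± SE (y axis, basal TEB minus basal duct) of the 19 beta and 22 gamma genes tested, in their order along the chromosome (x axis), with the median of all genes tested as a dashed line. The values ran from -4.70 (Pcdhb4) to 2.22 (Pcdhga6), and no gene passed an FDR of 0.05, while 6 of the beta genes passed the filter on low counts only through basal duct.

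Luminal TEB against luminal duct was the contrast that led to the family, and is given without a test. The fitted log2 fold change was above 0 for 34 of the members that passed the filter and below 0 for 15, with a median of 1.09 (0.71 with genes at 0 set to their bound) against 0.04 over all genes. Libraries did not overlap for 13 members higher and 2 lower (Pcdhb14 and Pcdhb17) in luminal TEB, where 43.7% of all genes did not overlap (26.2% higher and 17.4% lower) and 1.41% were called (0.639% higher and 0.771% lower). Luminal duct had no count for 17 of the 51 members. Of these, Pcdhga6 was at least 22.9-fold, Pcdhga4 at least 16.9-fold and Pcdhgb1 at least 13.4-fold higher in luminal TEB by counts pooled over the group. A single library can lie below such a bound. Pcdhb9, also at 0 in luminal ducts, was at least 8.55-fold higher in luminal TEB.

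The alpha cluster was nearly silent at this depth. Of 14 alpha genes, 5 had no count in any library, 8 had counts that did not pass the filter, and 1 passed, Pcdhac2, a C-type gene. Pcdhac2 was at 0.918, 0 and 2.05 CPM in basal duct, 12.7, 4.74 and 1.43 in basal TEB, 0.364 and 0 in luminal duct, and 0.673, 0.914 and 0.289 in luminal TEB. The basal TEB libraries lay above the luminal TEB libraries, without a call, where 22.6% of all genes tested did so. The basal groups overlapped. The highest level of any other alpha gene was that of Pcdha11 in basal duct 2 (1.42 CPM), the only library in which it was counted.

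Regulators and partners of protocadherins were read from a list of 32 genes, all of which passed the filter. In basal TEB against basal duct 0 of 32 were called by edgeR or by any other test tried, where 1.32% of all genes were called. In ducts 8 were higher and 5 lower in basal cells, where 12.6% of all genes were called higher and 9.71% lower. In TEBs 6 were higher and 9 lower, where 13.2% and 11.8% of all genes were. The medians over the list were 0.06 in ducts and -0.04 in TEBs (log2) against 0.08 and 0.04 over all genes. Fold changes below are from edgeR, with standard errors of 0.150 to 1.44, for genes past an FDR of 0.05.

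Of the factors that shape the clustered promoters, Trim28 (log2 fold change 0.87 in ducts and 0.62 in TEBs) and Setdb1 (0.78 and 0.54), a corepressor and a histone H3 methyltransferase, were higher in basal cells of both structures. The cohesin subunits Smc1a (1.04) and Stag1 (0.87) and the DNA methyltransferase Dnmt3a (0.61) were higher in basal cells of ducts. CTCF itself (Ctcf) was not called in either structure. Without composition normalization the median of all genes shifted to 0.19 in ducts and -0.35 in TEBs, and Trim28, Stag1, Smc1a and Dnmt3a were then not called in ducts, nor Trim28 and Setdb1 in TEBs. The same holds for Ptk2, Ppp1ca and Abi1 in ducts and for Abi2 and Set in TEBs.

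Of the partners at the membrane, N-cadherin (Cdh2) was higher in basal cells by 5.59 in ducts and 9.31 in TEBs on the log2 scale, and the kinase Fyn by 2.65 and 3.68. The kinases that gamma and alpha protocadherins bind, Ptk2b (Pyk2) and Ptk2 (FAK), were lower in basal cells, with log2 fold changes of -6.15 and -0.96 in ducts and -6.67 and -1.34 in TEBs. The sheddase Adam10 was lower as well (-1.75 and -2.12), and Psen2, of the gamma-secretase that cuts after it, was lower in TEBs (-1.04). Ppp1ca, the PP1 catalytic subunit that Pcdh7 binds, was lower (-0.68 and -0.65), and Set was higher in TEBs (0.74). In the WAVE actin complex, to which delta-2 protocadherins connect, Abi2 was higher (1.33 and 0.77) and Abi1 lower (-0.64 and -0.99) in basal cells, and Nckap1 (-1.01), Cyfip1 (-1.05) and Wasf2 (-1.22) were lower in TEBs.

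Markers of nerve and Schwann cells, in which protocadherins are best known, summed to 196 to 356 CPM in basal and 36.5 to 93.9 CPM in luminal libraries. Of that sum Sox10, a gene of basal mammary cells as well, took 168 to 326 CPM in basal and 30.5 to 73.1 CPM in luminal libraries, and between 1 and 5 of the 8 markers were at 0 in a library. Fibroblast markers ranged from 226 to 839.6 CPM in basal libraries, and from 6.03 to 249.7 CPM in luminal ones. Immune markers (Ptprc, Cd52, Laptm5, Cd74 and Tyrobp) reached 193 CPM in luminal duct 3 and 79.5 CPM in basal duct 2, and the part of these cells in the protocadherin levels was not tested.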

How the data were processed

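Sorted basal and luminal cells of ducts and TEBs were profiled by RNA-seq (polyA RNA, a kit that does not mark strand, 80 bp paired-end reads). The deposited values are raw counts of read pairs per Entrez gene, which the authors made with Rsubread (featureCounts per the labels) and its inbuilt mm10 annotation, without normalization. The deposited table also lists a gene length. Each of the 11 library tables equalled its column in the series table, and 0 columns were unused.

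Symbols were matched by Entrez identifier to a RefSeq table of GRCm38.p6 (25275 of 27179 matched). Counts were fitted with edgeR 4.0.16 under R 4.3.3, after filterByExpr (minimum count 10, minimum total 15; 17370 genes kept), TMM scaling and the quasi-likelihood test over 4 groups in 1 model, with Benjamini-Hochberg adjustment over all genes at an FDR of 0.05. The authors' methods name edgeR's glmFit after the same filter and scaling, and its likelihood ratio test was run as an alternative beside DESeq2 1.42.0 and limma 3.58.1. Standard errors were taken as the size of the fold change on the log2 scale over the square root of F. The common biological coefficient of variation was 0.704. Totals of 27989137 to 49221436 counts per library set the precision, and a group at 0 was set to 3 counts for a bound. The bound compares counts pooled over each group and leaves out the spread between libraries. Scripts were tested on simulated data.

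Members and lists were chosen with earlier results of these data known. Members named with every value are Pcdhgc3, those past the FDR in a tested comparison and those with a mean of at least 1 CPM in a group. Pcdhgc3 was left out of both basal against luminal comparisons, of which the duct one was fixed in the plan as tested, because both luminal groups led to its choice, which leaves 50 members there. Shared exons and 80-base windows were read from GENCODE vM21 (GRCm38). Chromatin accessibility and single-cell data were not analysed here.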

Additional observations from a re-analysis of the deposited data

Results flagged for a closer look

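Pcdhb9, a gene of the beta cluster, had TEB and duct libraries that did not overlap in either cell type, with opposite signs. It was found by searching the members that passed the filter for this pattern. Over all genes tested, 20.8% did not overlap between TEB and duct in basal cells (11.9% lower in TEB). In luminal cells 43.7% did not overlap (26.2% higher in TEB). The share of all genes with opposite signs in the cell types was not counted, so the pattern is not set apart from the background. Luminal duct 3 had 28.5% of its counts on mitochondrial genes and 30 of 51 members at 0. In basal cells all 3 TEB libraries (0, 1.12 and 0.532 CPM) lay below all 3 duct libraries (5.95, 4.37 and 4.44 CPM), with a log2 fold change of -3.14 (SE 1.44) that did not pass the test (adjusted p = 0.352 by edgeR). In luminal cells all 3 TEB libraries (0.291, 0.305 and 0.520 CPM) lay above both duct libraries, which had no count, with a fitted log2 fold change of 6.92 that is no bound. As a bound from counts pooled over each group, luminal TEB was at least 8.55-fold higher. The luminal contrast, which led to the choice of the family, was not tested, and the difference between the cell types was not tested either.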

How the results depend on the processing

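The calls of Pcdh18, Pcdh7 and Pcdh1 between basal and luminal cells in both structures, and of Pcdhgb1 in ducts, held under all 21 alternatives. In ducts 16 members were called by the likelihood ratio test, 18 by DESeq2 and 18 by limma voom, against 8, and 7 to 10 with 1 library left out. In TEBs 10 were called by the likelihood ratio test, 12 by DESeq2, 12 in a fit of the TEB groups alone and 8 without basal TEB 1 and luminal duct 3 together, against 5, and 3 to 7 with 1 library left out. The share of all genes called is given for the main fit only, so counts under the alternatives have no background here. In basal TEB against basal duct limma voom called 2 members and each other alternative 0. Both members passed the filter only through basal duct, where they had to be high. Of the regulators in ducts, 6 were called without composition normalization and 5 in a fit of the duct groups alone, against 13. The log2 fold change of Pcdhgc3 in basal TEB against basal duct was -0.045 without composition normalization, -0.0093 without basal TEB 1 and luminal duct 3, and from -0.25 (without basal duct 2) to 0.39 (without basal TEB 3) with 1 library left out. Without composition normalization the summed level in luminal TEB was 58.6 CPM for gamma and 70.1 CPM for non-clustered genes. The cause of these changes was not tested.

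The design names 3 independent mouse pools, but not that a replicate number marks a pool. Over 15 pairs of libraries with the same number the correlation of their deviations from the group means ran from -0.07 to 0.16, and 4 were over 0.1. Pairs with different numbers ran from -0.16 to 0.14. For basal TEB with basal duct, the same number gave 0.06 to 0.12 and different numbers -0.15 to 0.03. For basal TEB with luminal duct, the same number gave -0.02 and -0.03. These values do not settle whether a number marks a pool, and the main fit did not pair the libraries. With the replicate number as a block, 0, 7 and 4 members were called in basal TEB against basal duct, in basal against luminal ducts and in TEBs, and the calls of Pcdhb20 in ducts (adjusted p = 0.0528) and Pcdhb14 in TEBs (0.0800) were lost. Under the block 37 of 50 members in TEBs had a log2 fold change above 0, against 43. Luminal duct has 2 libraries, and depth limits genes of few counts, so a count of 0 shows only that a level was under 0.0572 to 0.173 CPM.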
